A study of Homo sapiens with 12 samples.

Results

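The genes described here are 31 target genes of YAP and TAZ, the coactivators at the end of the Hippo pathway, chosen as genes whose transcription is known to depend on TEAD factors, without the CCN family and without the feedback genes of the pathway. They were found by symbol among the 58735 genes of the count table, and each passed the minimum of a mean of 5 counts per library that left 18415 genes to test. RNA sequencing was done on SW872, a cell line from a human liposarcoma, made to express stably the fusion protein TAZ-CAMTA1 (TC) or YAP-TFE3 (YT). Each line also carried a stable short hairpin, either non-targeting (shNT) or directed at YEATS2 (shYEATS2) or ZZZ3 (shZZZ3), whose products belong to the histone acetyltransferase complex ATAC. The 6 groups (TC shNT, TC shYEATS2, TC shZZZ3, YT shNT, YT shYEATS2 and YT shZZZ3) held 2 libraries each. The lines were drug-selected pools of transduced cells, and no group without a fusion was analysed, so the values do not say how far a gene depended on its fusion. The study calls the 2 libraries of a group biological duplicates. It states separate transductions for its sets made in triplicate but not for these hairpin libraries, and p-values measure the spread between such libraries.

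YAP and TAZ do not bind DNA themselves. When the kinases of the Hippo pathway do not hold them in the cytoplasm, they enter the nucleus, bind the TEAD transcription factors and raise the transcription of genes for growth factors, adhesion proteins and regulators of the actin cytoskeleton. Both fusions keep the part of TAZ or YAP that binds TEAD and replace the rest with the activating part of CAMTA1 or of TFE3, a factor of the basic helix-loop-helix leucine zipper family that binds E-box sequences. The ATAC complex acetylates histones at promoters and enhancers. YEATS2 is its reader of acylated lysines, and ZZZ3 its reader of the histone H3 tail. The comparisons address how loss of either subunit moves the target genes in each fusion line.

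The promoters of 3 members are shown because these genes were past the test in both knock-downs of the YT line and hold the TEAD core GGAATG (searched on both strands, so also as CATTCC) in the 250 bases before a RefSeq start. The other member past the test in both, GADD45A, had no entry in the promoter table. Sequences are from RefSeq (GRCh38.p14), 5′ to 3′ on the strand of the gene, ending at the base before the start, with the TEAD core in capitals. The window of FOXF2, which encodes a forkhead transcription factor and fell in both knock-downs, is chr6:1389326-1389575 (plus strand). That of EDN1, which encodes the vasoconstrictor peptide endothelin-1 and rose, is chr6:12289764-12290013 (plus strand), before 1 of its 3 listed starts. That of ANKRD1, which encodes an ankyrin repeat protein of the nucleus and the sarcomere and rose, is chr10:90921088-90921337 (minus strand).
FOXF2: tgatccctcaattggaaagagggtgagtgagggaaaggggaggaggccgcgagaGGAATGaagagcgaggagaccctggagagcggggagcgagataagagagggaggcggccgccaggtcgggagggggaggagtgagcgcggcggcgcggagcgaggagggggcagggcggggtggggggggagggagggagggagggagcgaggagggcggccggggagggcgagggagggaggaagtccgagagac
EDN1: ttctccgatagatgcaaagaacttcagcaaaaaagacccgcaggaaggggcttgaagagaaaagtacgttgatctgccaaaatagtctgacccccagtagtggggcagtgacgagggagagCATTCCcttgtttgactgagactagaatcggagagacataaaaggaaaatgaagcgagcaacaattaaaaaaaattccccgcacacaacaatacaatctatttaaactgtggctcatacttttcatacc
ANKRD1: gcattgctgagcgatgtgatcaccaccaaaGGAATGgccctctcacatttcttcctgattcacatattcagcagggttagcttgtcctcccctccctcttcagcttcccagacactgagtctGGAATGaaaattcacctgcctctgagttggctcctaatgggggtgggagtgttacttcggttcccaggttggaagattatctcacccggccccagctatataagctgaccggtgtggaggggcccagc
ANKRD1 held 2 TEAD cores, whose first bases lay 220 and 128 bases before the start, and between them a match to the AP-1 core TGANTCA at 195. The core lay 196 bases before the start of FOXF2 and 129 before the EDN1 start used, the only 1 of its 3 listed starts with a core.

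Of the 31 members, 23 were in the promoter table, with 37 windows. A TEAD core stood in the window of 9 of these 23 genes (39.1%), beside 14.3% of the 27305 genes of the table. The 9 genes were DKK1, EDN1, TGFB2, AXL, WTIP, PTPN14, NUAK2, ANKRD1 and FOXF2. The AP-1 core stood in 3 of 23 (13%), namely F3, AMIGO2 and ANKRD1, beside 8.06% of all genes, and the E-box CACGTG in 2 of 23 (8.7%), TGFB2 and FJX1, beside 7.73%. Counted by window rather than by gene, 24.3% of the members' windows and 11.9% of all windows held a TEAD core. These shares describe short windows, with no test and no measure of binding.

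Total counts ranged from 17451893 to 29294805 per library, and the members together took between 0.192% and 0.284% of them, with the sum of their normalised levels (CPM, library-scaled counts after TMM normalisation) between 2026 and 2964. The lowest count of a member in any library was 12, for ANKRD1, the only member under 20 counts in a library. Libraries of 1 group differed in how their counts depended on GC content: the fitted log2 difference between genes at the 90th and the 10th percentile of GC was 0.73 and -0.60 in TC shNT and 0.41 and -0.65 in YT shZZZ3. In the other groups this difference was 0.30 and -0.06 for TC shYEATS2, 0.19 and 0.05 for TC shZZZ3, -0.54 and -0.31 for YT shNT, and 0.13 and 0.36 for YT shYEATS2, so in the YT line it also separated the shYEATS2 libraries from their controls. The members' GC content ranged from 36.6% (RBMS3) to 64.3% (FSTL3). Of the 5 mesenchymal markers, VIM (696 to 2150 CPM) and PDGFRB (213 to 533 CPM) were high in each library. THY1 (15.2 to 63.9 CPM), COL1A2 (8.71 to 97.2 CPM) and CDH2 (3.97 to 72.5 CPM) were lower. COL1A2 averaged 83.7 CPM in TC shNT and 8.96 CPM in YT shNT, and CDH2 8.90 CPM in YT shNT and 71.4 CPM in YT shYEATS2. The leukocyte markers PTPRC, CD68 and CD3E stayed at or below 0.619 CPM. Of the 5 adipocyte markers, LPL (73.3 to 286 CPM) and PPARG (36.8 to 109 CPM) were well above 0, while PLIN1 (up to 1.55 CPM), FABP4 (up to 0.296 CPM) and ADIPOQ (up to 0.0516 CPM) were low. Of the 4 epithelial markers the keratins KRT8 and KRT18 were present (43.8 to 739 CPM), and EPCAM and CDH1 were low (0.0364 to 1.91 CPM). The 4 endothelial markers PECAM1, CDH5, KDR and TEK ranged from 2.06 to 133 CPM, and KDR and CDH5 stood at 133 and 91.4 CPM in TC shYEATS2 replicate 2 against 12.8 and 27.6 CPM in replicate 1. TAGLN shares 34.1% of its exonic bases with PCSK7 on the opposite strand and 38.1% with another annotated gene on its own strand. TGFB2 shares 22.7% with TGFB2-OT1 on its own strand. The handling of strand and of shared bases in counting is not stated, so the counts of both genes are uncertain.

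The gene named by each hairpin was measured first. YEATS2 stood at 113 and 123 CPM in TC shNT and at 45.5 and 35.1 CPM in TC shYEATS2, a log2 difference of -1.55 ± 0.18 (SE, adjusted p = 0.0138). In the YT line it stood at 115 and 117 CPM with shNT and at 33.9 and 38.5 CPM with shYEATS2 (-1.68 ± 0.18, adjusted p = 0.000104). ZZZ3 stood at 25.6 and 60.4 CPM in TC shNT and at 21.9 and 22.7 CPM in TC shZZZ3, a difference of -0.94 ± 0.42 that did not pass the test (adjusted p = 0.45). In the YT line it stood at 71.2 and 49.1 CPM with shNT and at 12.6 and 29.6 CPM with shZZZ3 (-1.51 ± 0.43, adjusted p = 0.0453). YEATS2 was thus lower under its hairpin in both lines. ZZZ3 lay below its controls in each line, in TC without passing the test, so the TC shZZZ3 libraries are taken by their label. With the groups of the comparison alone the YEATS2 call in TC was lost (adjusted p = 0.15), and the ZZZ3 call in YT held in 6 of 11 alternatives. ZZZ3 also stood at 31.4 and 30.7 CPM in YT shYEATS2 (-0.95 ± 0.42 against YT shNT, adjusted p = 0.13).

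The members covered a wide range of levels. Per kilobase of exon, the highest in TC shNT was CAV1, the coat protein of caveolae, at 54.6 CPM per kilobase, followed by ARHGEF17 (27.5), the focal adhesion protein TNS3 (25.6), the receptor tyrosine kinase AXL (20.8) and the membrane repair protein MYOF (19.4). In YT shNT the highest were MYOF (45.8), CAV1 (38.4), TNS3 (26.1), ARHGEF17 (22.9) and GADD45A (22.3). At the low end, ANKRD1 stood at 0.46 CPM per kilobase in TC shNT and 0.47 in YT shNT, and the RNA-binding protein RBMS3 at 0.78 and 0.75. In the plot of level per length, DKK1, an extracellular inhibitor of Wnt signalling, ran from 0.88 CPM per kilobase in TC shZZZ3 to 21.2 in YT shYEATS2.

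**Figure D1:**
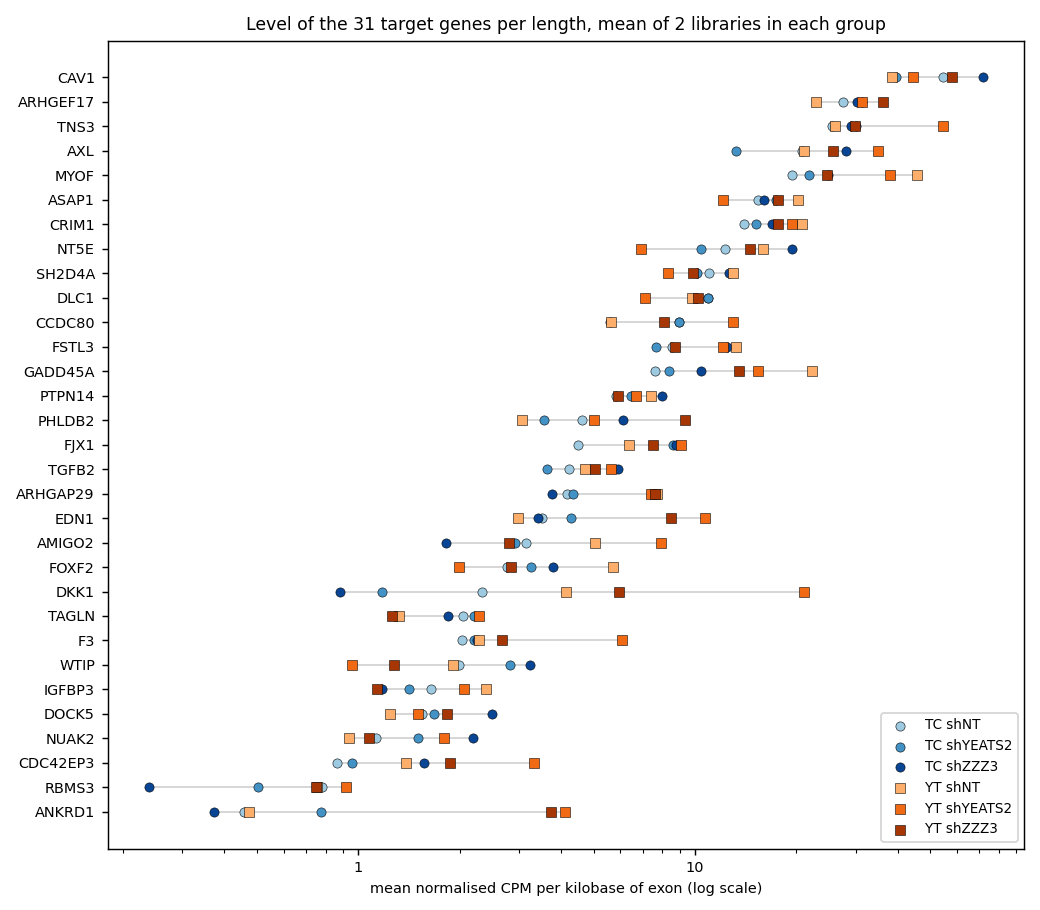
Mean normalised CPM per kilobase of exon (x axis, log scale) of each of the 31 target genes (y axis, ordered by level in TC shNT) in the 6 groups, each point the mean of 2 libraries, circles for TC and squares for YT. EDN1 and ANKRD1 have both YT knock-down squares to the right of the other groups, DKK1 its YT shYEATS2 square, and RBMS3 its TC knock-down circles far to the left, at 0.50 and 0.24.

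In the TC line, knock-down of YEATS2 moved no member past the test. Of the 31, 0 were called at an adjusted p under 0.05 in edgeR, beside 0.0434% of all genes tested (8 of 18415), and 3 had an unadjusted p under 0.05. The share of all genes with an unadjusted p under 0.05 was not counted, here and below, so such counts are description only. DESeq2 also called 0, beside 117 of all genes. The median log2 fold change of the members was 0.118, and over all genes tested -0.01. It turned to -0.0847 without TC shNT replicate 1 and to -0.0397 without TC shYEATS2 replicate 1, so no direction is read from it. In bulk RNA, fewer cells that express a gene and less RNA per cell cannot be told apart, here and below. The 3 were FJX1, a relative of the Drosophila protein four-jointed, DKK1 and AXL. FJX1 stood at 12.1 and 9.56 CPM in TC shNT and at 24.4 and 16.9 CPM in TC shYEATS2 (0.92 ± 0.26, adjusted p = 0.35). DKK1 stood at 4.50 and 5.83 CPM against 3.07 and 2.16 CPM (-0.95 ± 0.32, adjusted p = 0.566). For both genes the groups did not overlap. With 2 libraries a group this says little, here and below, since its share over all genes was not counted. Neither difference passed after adjustment.

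Knock-down of ZZZ3 in the TC line likewise gave 0 calls of 31, beside 1.53% of all genes tested (281). Here 13 members had an unadjusted p under 0.05, again without the share of all genes to set beside it. The median log2 fold change was 0.274, beside -0.01 over all genes. The largest differences were those of RBMS3, at 10.2 and 18.6 CPM in TC shNT and 4.22 and 4.60 CPM in TC shZZZ3 (-1.69 ± 0.43, adjusted p = 0.0909), and of DKK1, at 2.52 and 1.39 CPM in TC shZZZ3 (-1.34 ± 0.32, adjusted p = 0.0692). CCDC80, which encodes a secreted protein of the matrix, stood at 111 and 123 CPM in TC shNT and at 70.0 and 76.4 CPM in TC shZZZ3 (-0.68 ± 0.17, adjusted p = 0.0906). On the other side, FJX1 stood at 22.7 and 19.6 CPM in TC shZZZ3 (0.96 ± 0.26, adjusted p = 0.117) and NUAK2, a kinase related to AMPK, at 7.63 and 7.27 CPM against 4.62 and 3.06 CPM (0.94 ± 0.29, adjusted p = 0.186). Each of these 5 genes had both TC shZZZ3 libraries outside the range of TC shNT. With 2 libraries a group this says little, and its share over all genes was not counted. The count of calls rested on the method: DESeq2 called 5 members (DKK1, CCDC80, RBMS3, FJX1 and CDC42EP3), beside 532 of all genes. With the GC trend of each library removed 8 were called, beside 679 of all genes. These included DKK1, RBMS3, CCDC80, FJX1 and NUAK2 in the directions given. DKK1 was called in 4 of 11 alternatives, the replicate block among them, and RBMS3 in 3. In TC shYEATS2 against TC shZZZ3 0 of 31 members were called (1.2% of all genes). An unadjusted p under 0.05 was reached by 11, without the share of all genes. DESeq2 called 4 members there, beside 492 of all genes. The 2 libraries of a group differed to unlike extents. Their chi-square per gene was 109 in TC shNT, 54.7 in TC shYEATS2 and 11 in TC shZZZ3. In the YT line it was 12.4 in YT shNT, 18.4 in YT shYEATS2 and 98.5 in YT shZZZ3. The part of this spread in the number of calls was not tested, so 0 calls are not read as no response.

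**Figure D2:**
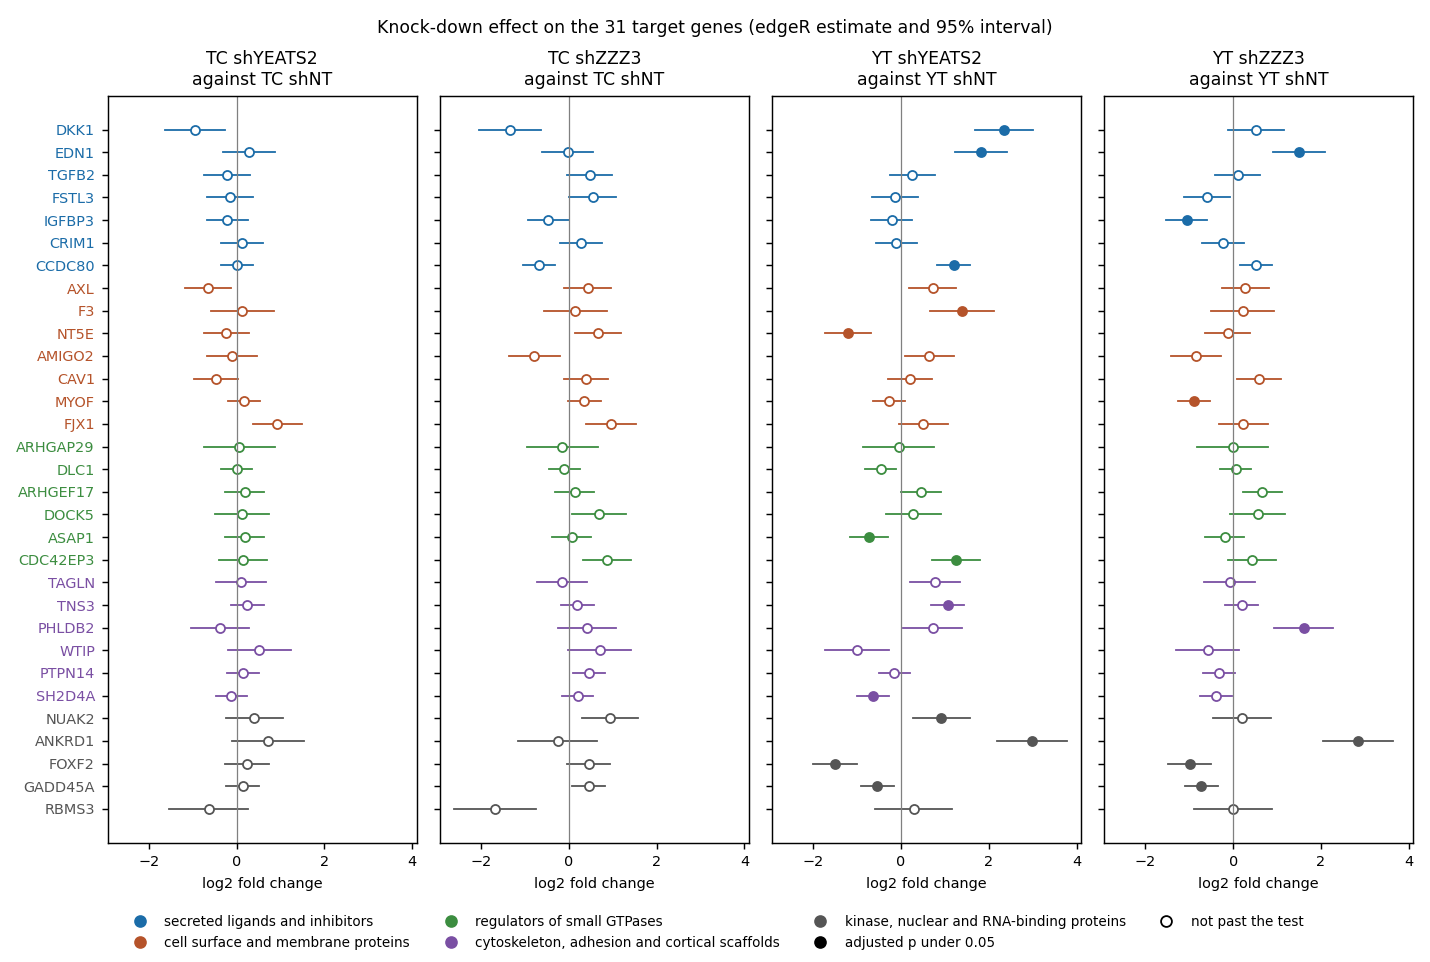
Log2 fold change (x axis, edgeR estimate with 95% interval) of the 31 target genes (y axis, coloured by role) in the 4 knock-downs against shNT of the same line. Filled points passed an adjusted p of 0.05: there are 0 in each TC panel, 13 for YT shYEATS2 and 7 for YT shZZZ3, on both sides of the zero line.

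In the YT line, knock-down of YEATS2 moved 13 of the 31 members (41.9%), 8 of them up and 5 down, beside 20.7% of all genes tested (9.61% higher and 11.1% lower). The members that rose were ANKRD1, DKK1, EDN1, F3, CDC42EP3, CCDC80, TNS3 and NUAK2, and those that fell were FOXF2, NT5E, ASAP1, SH2D4A and GADD45A. The median log2 fold change over the 31 was 0.279 with a range from -1.50 to 2.99, beside a median of -0.01 over all genes. The median absolute change was 0.65 for the members and 0.47 over all genes. The list therefore did not move one way as a body.

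Among the 7 members listed as secreted ligands and inhibitors, 3 rose and 0 fell, where 9.61% of all genes rose and 11.1% fell. Each role holds only a few genes, so counts by role, here and below, are not read as results about the roles. DKK1 (chr10:52314281-52318042, plus strand), the Wnt inhibitor, stood at 9.29 and 9.03 CPM in YT shNT and at 55.5 and 38.5 CPM in YT shYEATS2. This was a 5.09-fold rise (log2 2.35 ± 0.30, adjusted p = 0.000358), with both knock-down libraries above every other library of the series. EDN1 (chr6:12290361-12297194, plus strand) stood at 6.71 and 5.46 CPM against 23.6 and 19.9 CPM. Its window given above precedes 1 of 3 listed starts and ends at 12290013, upstream of the gene start given here. It rose 3.54-fold (1.83 ± 0.27, adjusted p = 0.000865), again with no overlap. CCDC80 (chr3:112596797-112649530, minus strand) stood at 74.5 and 73.0 CPM against 170 and 168 CPM, so that the libraries of each group lay close together and the groups far apart. It rose 2.29-fold (1.20 ± 0.17, adjusted p = 0.000636). The other members listed here, TGFB2, the activin-binding FSTL3, the IGF-binding IGFBP3 and the BMP-binding transmembrane protein CRIM1, had log2 fold changes from -0.21 to 0.26 and did not pass.

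Among the 7 cell surface and membrane proteins, 1 rose and 1 fell (9.61% and 11.1% of all genes). F3, tissue factor, which starts coagulation, stood at 6.55 and 6.67 CPM in YT shNT and at 18.6 and 16.5 CPM in YT shYEATS2 (2.63-fold, 1.40 ± 0.33, adjusted p = 0.0121). NT5E, the surface enzyme CD73 that makes adenosine from AMP, went the other way, from 77.2 and 67.0 CPM to 35.0 and 27.6 CPM. It fell 2.30-fold (-1.20 ± 0.24, adjusted p = 0.00478), and its knock-down libraries were the lowest of the 12. AXL stood at 105 and 112 CPM against 179 and 180 CPM, without overlap, and just missed the test (0.73 ± 0.24, adjusted p = 0.0553), although it was called in 7 of 11 alternatives, the replicate block and DESeq2 among them. AMIGO2, CAV1, MYOF and FJX1 ranged from -0.27 to 0.65 and did not pass.

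Of the 6 regulators of small GTPases, 1 rose and 1 fell (9.61% and 11.1% of all genes). CDC42EP3, an effector of CDC42 that shapes actin, stood at 15.1 and 12.5 CPM in YT shNT and 36.9 and 29.4 CPM in YT shYEATS2 (2.39-fold, 1.26 ± 0.25, adjusted p = 0.00448). ASAP1, a GTPase-activating protein for ARF GTPases, fell 1.66-fold, from 172 and 163 CPM to 102 and 99.6 CPM (-0.73 ± 0.20, adjusted p = 0.0247). In neither gene did the groups overlap, which is description only. ARHGAP29, DLC1, ARHGEF17 and DOCK5 did not pass, with log2 fold changes from -0.46 to 0.45. Of these, DLC1 (-0.46 ± 0.16, adjusted p = 0.0612) was called in 4 of 11 alternatives, the replicate block among them.

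Of the 6 proteins of the cytoskeleton, adhesion and cell cortex, TNS3 rose and SH2D4A fell (9.61% and 11.1% of all genes). TNS3, the tensin of focal adhesions and the member with the most counts, stood at 321 and 335 CPM in YT shNT and at 689 and 681 CPM in YT shYEATS2, above the range of 301 to 419 CPM held by the 10 other libraries. It rose 2.09-fold (1.06 ± 0.17, adjusted p = 0.00148). SH2D4A, an SH2 domain adaptor, went from 50.6 and 54.9 CPM to 36.0 and 31.7 CPM (1.56-fold lower, -0.64 ± 0.17, adjusted p = 0.0188). WTIP, a LIM protein of the Ajuba family, stood at 26.1 and 25.9 CPM against 11.7 and 14.4 CPM and just missed the test (-1.0 ± 0.34, adjusted p = 0.0548), as did the actin-binding TAGLN (0.77 ± 0.26, adjusted p = 0.057). WTIP was called in 6 and TAGLN in 3 of 11 alternatives, both with the replicate block.

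The kinase, nuclear and RNA-binding members gave both the largest rise and the largest fall. ANKRD1 (chr10:90912096-90921087, minus strand) stood at 1.0 and 0.69 CPM in YT shNT and at 8.74 and 5.94 CPM in YT shYEATS2, a 7.93-fold rise (2.99 ± 0.36, adjusted p = 0.000194) at a low level. FOXF2 (chr6:1389576-1395603, plus strand) stood at 13.1 and 14.9 CPM against 4.87 and 4.90 CPM. It fell 2.83-fold (-1.50 ± 0.23, adjusted p = 0.000968), with the knock-down libraries below every other library. GADD45A (chr1:67685201-67688334, plus strand), a stress protein of growth arrest and DNA damage, fell 1.45-fold, from 42.0 and 44 CPM to 29.4 and 29.7 CPM (-0.54 ± 0.17, adjusted p = 0.0447). NUAK2 rose 1.90-fold, from 3.01 and 3.34 CPM to 5.54 and 6.66 CPM (0.92 ± 0.30, adjusted p = 0.0463). RBMS3 had a log2 fold change of 0.29 and did not pass.

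Of these 13 calls, 6 held in each of the 11 alternatives tried, those of DKK1, EDN1, CCDC80, TNS3, ANKRD1 and FOXF2. The 7 others were lost when 1 library was left out, with 7 members called in each of those 4 fits: F3, ASAP1, SH2D4A, NUAK2 and GADD45A without any of the 4 libraries compared (adjusted p from 0.0538 to 0.222), NT5E without YT shNT replicate 1 or YT shYEATS2 replicate 2, and CDC42EP3 without YT shNT replicate 2 or YT shYEATS2 replicate 1 (0.0507 to 0.069 for both genes together). Without a filter on low counts SH2D4A (0.0775) and GADD45A (0.214) were also lost. Each fit without 1 library also called fewer of all genes tested than the fit with all 12, so such losses are not particular to the members. With the groups of the comparison alone 22 members were called, beside 8719 of the 18415 genes tested. With the GC trend removed all 13 were called, in a total of 21 members, beside 5703 of all genes. The median GC content was 43.2% for the 8 that rose and 47.5% for the 5 that fell.

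**Figure D3:**
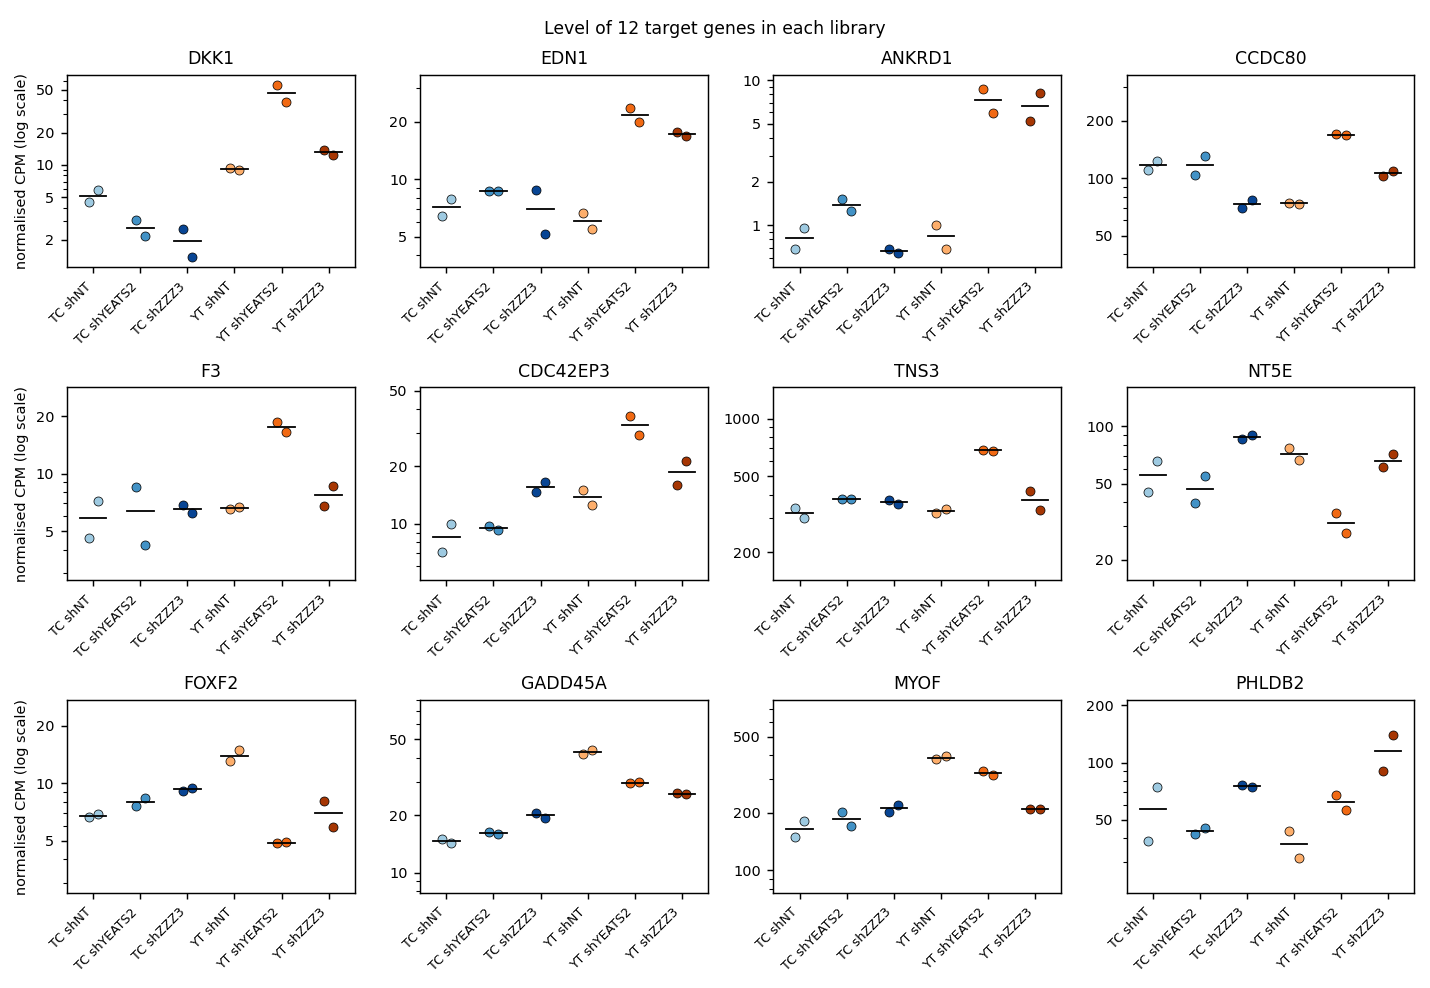
Normalised CPM (y axis, log scale) of 12 target genes in each of the 12 libraries (points) with the mean of each group of 2 (line). The 9 genes DKK1, EDN1, ANKRD1, CCDC80, F3, CDC42EP3, TNS3, NT5E and FOXF2 have both YT shYEATS2 libraries well outside the range of YT shNT, with fitted folds from 2.09 (TNS3) to 7.93 (ANKRD1), while MYOF and PHLDB2 lie farther from YT shNT in YT shZZZ3. How many of all genes had their libraries apart was not counted.

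Knock-down of ZZZ3 in the YT line moved 7 of the 31 members (22.6%), beside 10% of all genes tested (4.4% higher and 5.62% lower). ANKRD1, PHLDB2 and EDN1 rose, and IGFBP3, FOXF2, MYOF and GADD45A fell. The median over the 31 was 0.0574, beside 0.01 over all genes. It was -0.0162 without YT shZZZ3 replicate 2, -0.00342 without YT shNT replicate 2 and 0.163 without YT shNT replicate 1, so no direction is read from it. Both YT comparisons use the same shNT libraries, so a call in both is not independent evidence. The 4 members called in both were EDN1, ANKRD1, FOXF2 and GADD45A, each in the same direction in both. How many of all genes were called in both, and in the same direction, was not counted.

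ANKRD1 stood at 5.24 and 8.12 CPM in YT shZZZ3, above the 1.0 and 0.69 CPM of YT shNT (7.20-fold, 2.85 ± 0.36, adjusted p = 0.000825). EDN1 stood at 17.8 and 16.8 CPM (2.82-fold higher, 1.49 ± 0.27, adjusted p = 0.00559). PHLDB2, which anchors microtubules at the cell cortex, stood at 43.6 and 31.6 CPM in YT shNT and at 90.8 and 139 CPM in YT shZZZ3 (3.05-fold, 1.61 ± 0.31, adjusted p = 0.0075). The rise of these 3 genes was larger than the spread of either group, although the YT shZZZ3 libraries of ANKRD1 and PHLDB2 lay well apart.

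The 4 endothelial markers also stood higher in YT shZZZ3 than in YT shNT, as did 50.9% of all genes tested by their estimates. PECAM1 went from 2.06 and 2.70 CPM to 22.2 and 19.5 CPM, and CDH5 from 21.6 and 21.9 CPM to 87.1 and 79.3 CPM. KDR went from 14.9 and 15.1 CPM to 26.8 and 35.2 CPM, and TEK from 8.92 and 9.60 CPM to 14.4 and 16.5 CPM. In YT shYEATS2, where EDN1 also rose, PECAM1 (6.49 and 5.73 CPM) and TEK (10.2 and 11.2 CPM) were above YT shNT and CDH5 (10.8 and 12.5 CPM) and KDR (14.4 and 11.2 CPM) below it. The mesenchymal markers moved as well between YT shNT and YT shZZZ3. Mean levels went from 702 to 1811 CPM for VIM, 15.3 to 42.9 for THY1, 8.90 to 18.4 for CDH2 and 8.96 to 12.2 for COL1A2. PDGFRB fell from 500 to 275 CPM. The part of any of these markers in the change of any member was not tested.

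IGFBP3, which binds insulin-like growth factors, stood at 10.4 and 11.6 CPM in YT shNT and at 4.88 and 5.54 CPM in YT shZZZ3, a 2.09-fold fall (-1.06 ± 0.22, adjusted p = 0.00916). MYOF fell 1.86-fold, from 383 and 394 CPM to 209 and 210 CPM (-0.89 ± 0.17, adjusted p = 0.00709), to about the level of the TC libraries (149 to 220 CPM). FOXF2 stood at 8.08 and 5.88 CPM in YT shZZZ3 (1.99-fold lower, -0.99 ± 0.23, adjusted p = 0.0166) and GADD45A at 26.2 and 25.8 CPM (1.65-fold lower, -0.73 ± 0.17, adjusted p = 0.0208). For none of the 4 genes did the groups overlap, which is description only, since its share over all genes was not counted. The 24 other members did not pass, among them DKK1 at 13.9 and 12.5 CPM (0.52 ± 0.29, adjusted p = 0.301), AMIGO2 (-0.85 ± 0.26, adjusted p = 0.0616), ARHGEF17 (0.67 ± 0.20, adjusted p = 0.0629) and CCDC80 (0.52 ± 0.17, adjusted p = 0.0774). The last 3 were called in 4, 5 and 2 of 11 alternatives.

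Of these 7 calls, that of ANKRD1 alone held in each of the 11 alternatives. Without YT shNT replicate 2 only 1 member was called, and without YT shNT replicate 1 only 3. EDN1 (adjusted p = 0.0767) and PHLDB2 (0.101) lost the call without YT shNT replicate 2, MYOF without either YT shNT library, IGFBP3 also without YT shZZZ3 replicate 1, FOXF2 without either YT shNT library or YT shZZZ3 replicate 2, and GADD45A without any library compared (0.0606 to 0.174 for these 4). With the groups of the comparison alone FOXF2 (0.0681) and GADD45A (0.0956) were lost, and without a filter GADD45A (0.109). Each fit without 1 library also called fewer of all genes tested than the fit with all 12, so such losses are not particular to the members. All 7 were called with the GC trend removed, in a total of 14 members, beside 3780 of all genes.

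Set against each other in the YT line, the hairpins differed at 8 of 31 members (25.8%), 7 higher and 1 lower with shYEATS2, beside 7.21% of all genes tested (3.42% higher and 3.79% lower). DKK1 was 3.54-fold higher in YT shYEATS2 than in YT shZZZ3 (1.83 ± 0.29, adjusted p = 0.00334). AMIGO2, an adhesion protein with leucine-rich repeats, stood at 30.7 and 32.2 CPM with shYEATS2 and at 8.59 and 13.6 CPM with shZZZ3 (2.82-fold, 1.50 ± 0.26, adjusted p = 0.00551), on either side of the 19.8 and 20.4 CPM of YT shNT. TNS3 (1.83-fold, adjusted p = 0.0103), F3 (2.26-fold, 0.0499), IGFBP3 (1.80-fold, 0.0323), CCDC80 (1.60-fold, 0.0317) and MYOF (1.54-fold, 0.0465) were also higher with shYEATS2. NT5E was 2.11-fold lower (-1.08 ± 0.24, adjusted p = 0.0183).

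The 4 genes called in both knock-downs gave no call here. The difference between the hairpins was 0.14 for ANKRD1 (95% interval -0.52 to 0.80), 0.33 for EDN1 (-0.24 to 0.90), -0.51 for FOXF2 (-1.01 to -0.01) and 0.19 for GADD45A (-0.19 to 0.56), so differences within these bounds could not be resolved by a test over all genes. Of the 8 calls 0 held in every alternative: 0 members were called without YT shYEATS2 replicate 1, 1 without YT shYEATS2 replicate 2, 5 when YT shZZZ3 replicate 1 was left out and 2 when its replicate 2 was, with adjusted p for the lost calls from 0.0552 to 0.267. Each of these fits without 1 library also called fewer of all genes tested than the fit with all 12. With library totals in place of TMM 4 members were called, beside 1273 of all genes, and 14 with the GC trend removed, beside 2956.

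To ask whether a hairpin acted differently in the 2 lines, the difference of its effects (YT minus TC) was tested directly. For YEATS2 the effects differed at 6 of 31 members (19.4%), 5 higher and 1 lower in YT, beside 9.37% of all genes tested (3.53% higher and 5.84% lower). For ZZZ3 they differed at 7 of 31 (22.6%), 4 higher and 3 lower, beside 4.32% (1.46% higher and 2.86% lower). DKK1, EDN1, CCDC80, ANKRD1 and FOXF2 were called for both hairpins. These tests use the same shNT libraries, so the shared names are not independent evidence. How many of all genes were called for both was not counted.

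DKK1 showed the widest difference for YEATS2: it stood lower than shNT in TC and higher in YT, and the effects differed by 3.29 ± 0.43 on the log2 scale (adjusted p = 0.000839). For ZZZ3 the same gene differed by 1.86 ± 0.44 (adjusted p = 0.0321). ANKRD1 differed by 2.27 ± 0.52 for YEATS2 (adjusted p = 0.0169) and 3.10 ± 0.55 for ZZZ3 (adjusted p = 0.00827), with TC libraries between 0.64 and 1.52 CPM throughout. EDN1 differed by 1.54 ± 0.38 and 1.52 ± 0.38 (adjusted p = 0.0252 and 0.0448), with TC libraries between 5.19 and 8.77 CPM. CCDC80 differed by 1.19 ± 0.24 for YEATS2 and 1.20 ± 0.24 for ZZZ3 (adjusted p = 0.00929 and 0.0176). AXL, called for YEATS2 alone, stood at 59.1 and 77.0 CPM in TC shYEATS2, below the 124 and 89.7 CPM of TC shNT, and above its control in YT (1.38 ± 0.34, adjusted p = 0.0285).

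FOXF2 was the only member past the test for both hairpins with a lower effect in YT, by -1.73 ± 0.32 for YEATS2 (adjusted p = 0.00571) and -1.44 ± 0.32 for ZZZ3 (adjusted p = 0.0247). In TC it stood at 6.64 and 6.93 CPM with shNT, 7.65 and 8.34 CPM with shYEATS2 and 9.10 and 9.51 CPM with shZZZ3. MYOF (-1.25 ± 0.24, adjusted p = 0.0144) and GADD45A (-1.17 ± 0.24, adjusted p = 0.0202) were lower in YT for ZZZ3. In the plot of TC against YT effects, ANKRD1, EDN1 and FOXF2 lie off the line of equal effects mostly by their YT value for both hairpins. For the ZZZ3 hairpin DKK1 (-1.34 in TC, 0.52 in YT) and CCDC80 (-0.68 and 0.52) lie off it more by their TC value.

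Of the YEATS2 differences, those of DKK1, CCDC80 and FOXF2 held in each of the 15 alternatives. EDN1 and AXL lost the call without TC shYEATS2 replicate 1 or any YT library compared (adjusted p from 0.0562 to 0.115), and ANKRD1 without YT shNT replicate 2 or YT shYEATS2 replicate 1 (up to 0.088). WTIP (adjusted p = 0.0684) and TNS3 (0.0554) did not pass for YEATS2 but were called in 7 and 6 of 15 alternatives. DESeq2 called 10 members for YEATS2, beside 2248 of all genes. Of the ZZZ3 differences 0 held in each: without YT shNT replicate 2 no member was called, without YT shNT replicate 1 or TC shZZZ3 replicate 2 only 1, without TC shZZZ3 replicate 1 3, and without either YT shZZZ3 library 4, with adjusted p for lost calls from 0.0501 to 0.194. Each of the fits just named for ZZZ3 also called fewer of all genes tested than the fit with all 12 libraries. With the GC trend removed, 18 members were called for YEATS2 and 14 for ZZZ3, the 6 and 7 above among them. Over all genes 3590 and 1955 were then called.

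**Figure D4:**
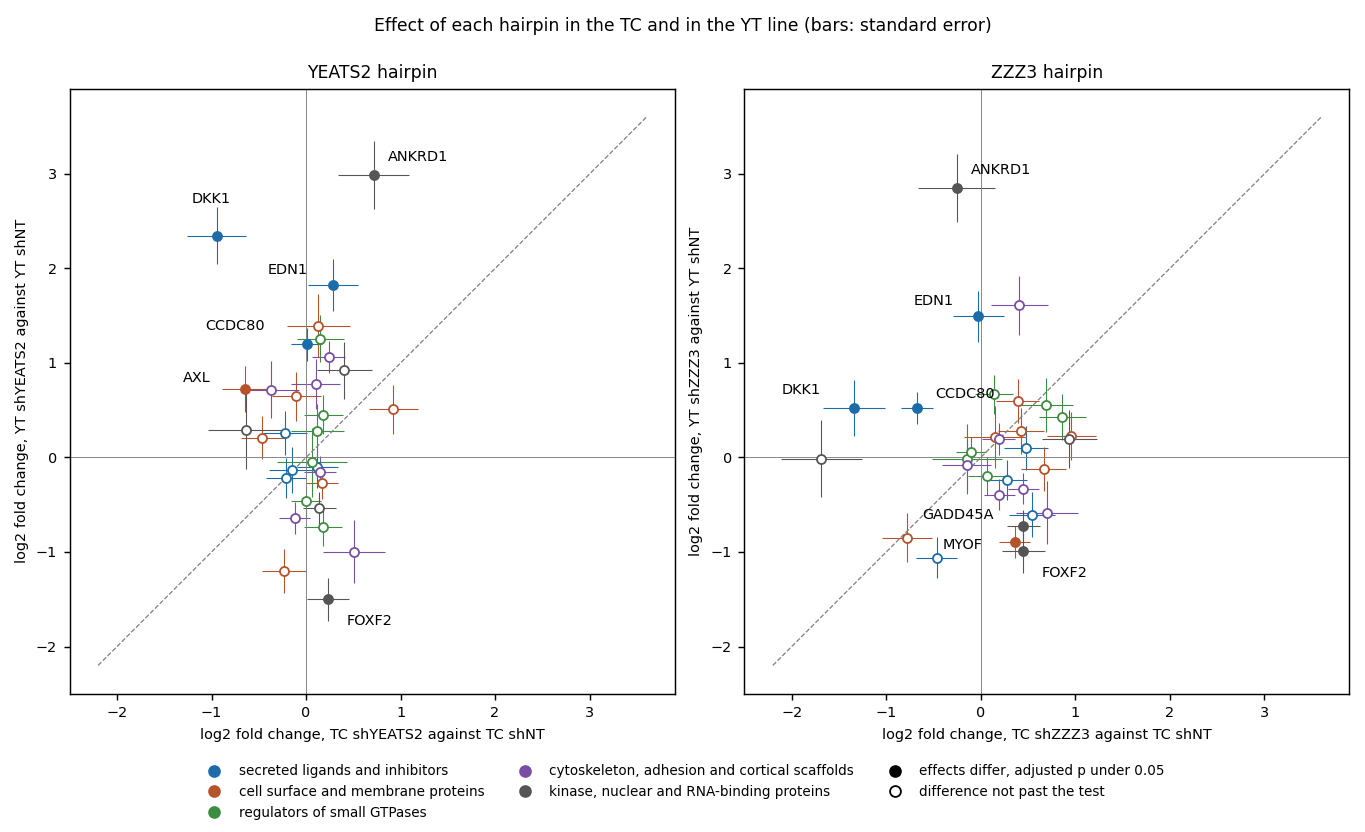
Log2 fold change against shNT in the TC line (x axis) and in the YT line (y axis) for each of the 31 target genes, for the YEATS2 hairpin (left) and the ZZZ3 hairpin (right), with standard errors; the dashed line marks equal effects and filled, named points differ between the lines at an adjusted p under 0.05. ANKRD1 lies at a YT value of 2.99 for YEATS2 and 2.85 for ZZZ3, FOXF2 at -1.50 and -0.99.

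The fusions were also compared under the control hairpin. In YT shNT against TC shNT 4 of 31 members were called (12.9%), 3 higher and 1 lower in YT, beside 9.23% of all genes tested (5.58% higher and 3.65% lower), and the median over the members was 0.172, beside -0.01 over all genes. GADD45A stood at 15.0 and 14.2 CPM in TC shNT and at 42.0 and 44 CPM in YT shNT (2.92-fold, 1.55 ± 0.18, adjusted p = 0.000354). MYOF stood at 149 and 180 CPM against 383 and 394 CPM (2.36-fold, 1.24 ± 0.17, adjusted p = 0.00119). FOXF2 was 2.05-fold higher in YT (1.04 ± 0.23, adjusted p = 0.0144), and CCDC80 1.58-fold lower (-0.66 ± 0.17, adjusted p = 0.0311). The groups of each gene stood apart, which is description only.

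GADD45A, MYOF and FOXF2 thus had their highest mean in YT shNT among the 6 groups. Their falls in the YT knock-downs share these YT shNT libraries. The calls of MYOF and GADD45A held in each alternative, FOXF2 lost its call without TC shNT replicate 1 or either YT shNT library (adjusted p up to 0.133) and CCDC80 without either YT shNT library (0.167 and 0.179). Both were lost with the groups of the comparison alone (0.073 and 0.175). With the GC trend removed 11 members were called, beside 3383 of all genes. In other RNA sequencing of the study, CAMTA1-containing lines were collected before confluence and the others after it. Whether this was so here is not stated, and fusion, line and culture density cannot be told apart.

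Of the 31 members, 13 were called in none of the 9 comparisons. The matching share of all genes was not counted, so this number is not read as a trait of the list. The 13 were TGFB2, FSTL3, CRIM1, CAV1, FJX1, ARHGAP29, DLC1, ARHGEF17, DOCK5, TAGLN, WTIP, PTPN14 and RBMS3. Some varied widely between libraries of 1 group, such as ARHGAP29, at 46.8 and 107 CPM in TC shNT and at 96.6 and 183 CPM in YT shZZZ3. RBMS3 stood at 8.95 and 18.6 CPM in YT shZZZ3. Both genes are poor in GC (37.8% and 36.6%), and these splits fall between libraries with opposite GC trends, whose part was not tested. PTPN14, a phosphatase that binds and restrains YAP, was steadier, between 101 and 152 CPM in all 12 libraries.

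Around the members, other genes of the pathway were counted as lists. Of 20 core and feedback genes of the Hippo pathway, 6 were called in each YT knock-down: 2 up and 4 down with shYEATS2, beside 20.7% of all genes tested, and 1 up and 5 down with shZZZ3, beside 10%. LATS2, the kinase that phosphorylates YAP and TAZ, stood at 46.5 and 48.3 CPM in YT shNT, at 20.7 and 19.4 CPM in YT shYEATS2 (-1.24 ± 0.19, adjusted p = 0.00119) and at 19.2 and 20.9 CPM in YT shZZZ3 (-1.24 ± 0.19, adjusted p = 0.00257). The scaffold AJUBA also fell in both (-0.92 ± 0.18 and -0.78 ± 0.18), while AMOTL1 rose in both (0.50 ± 0.16 and 0.78 ± 0.16). In the TC line 0 of the 20 were called with either hairpin in edgeR. At an unadjusted p under 0.05 there were 2 (shYEATS2) and 5 (shZZZ3), again without the share of all genes.

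Of the 9 tested coactivators, TEAD factors and VGLL cofactors, 4 were called in YT shYEATS2 (20.7% of all genes) and 1 in YT shZZZ3 (10%). TEAD1 (490 and 384 CPM in YT shNT, 214 and 208 CPM in YT shYEATS2) fell by 1.05 on the log2 scale (SE 0.27, adjusted p = 0.0198), TEAD4 fell by 1.28 (SE 0.28, adjusted p = 0.00794) and WWTR1, the gene of TAZ, rose (0.77 ± 0.20, adjusted p = 0.0198). Reads of the YAP part of the YT fusion may count toward YAP1 (-0.31 ± 0.25, adjusted p = 0.41) and those of the TAZ part of the TC fusion toward WWTR1, and the sources cannot be told apart. VGLL2, the fourth, and the single call in YT shZZZ3, had at most 2 counts in a YT shNT library and up to 14 and 38 in YT shYEATS2 and YT shZZZ3.

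Of 8 AP-1 factors, which often bind beside TEAD, JUN rose and FOS and ATF3 fell in both YT knock-downs (3 of 8 in each, beside 20.7% and 10% of all genes). ATF3 stood at 25.8 and 26.7 CPM in YT shNT, at 4.83 and 4.59 CPM in YT shYEATS2 and at 7.17 and 6.34 CPM in YT shZZZ3 (-2.46 ± 0.25 and -1.94 ± 0.24, adjusted p = 7.68e-05 and 0.000831). In TC shZZZ3, where no member and 1.53% of all genes were called, JUN (1.26 ± 0.23, adjusted p = 0.022), FOSL1 (1.48 ± 0.30, adjusted p = 0.029) and ATF3 (1.42 ± 0.25, adjusted p = 0.0146) rose. Of the 5 tested CCN genes, 2 were called in YT shYEATS2 and 1 each in YT shZZZ3 and TC shZZZ3, beside the same shares of all genes. Among the CCN genes, the study names CCN1 and CCN2 as well-defined targets of TAZ and YAP. CCN1 rose in TC shZZZ3 (1.49 ± 0.26, adjusted p = 0.0171) and in YT shYEATS2 (0.99 ± 0.26, adjusted p = 0.0202). CCN3 rose in YT shYEATS2 (1.25 ± 0.29, adjusted p = 0.0118), and CCN2 fell in YT shZZZ3 (-0.91 ± 0.23, adjusted p = 0.0269). As among the 31 members, the calls in these lists ran in both directions.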

How the data were processed

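Poly(A) RNA of the 12 libraries was made into stranded libraries and sequenced in paired ends. The authors deposited raw counts per Ensembl gene, whole numbers made with the bcbio-nextgen pipeline on hg38; whether they came from HISAT2 alignments or from Salmon, and how strand was handled, is not stated. No column was left out. Here libraries were grouped by their labels, scaled by TMM and fitted together in edgeR 4.0.16 (R 4.3.3, robust quasi-likelihood, 6 residual degrees of freedom, prior count 2) over 18415 genes, those averaging 5 counts or more per library. The 9 comparisons were tested two-sided, with Benjamini-Hochberg adjustment across these genes. A gene was called at an adjusted p under 0.05. Log2 fold changes carry standard errors of the fit. Genes per length use merged exons of GENCODE (GRCh38). ZZZ3, listed as AC118549.1, and the CCN genes were matched by Ensembl ID. The procedure was tested on simulated data. The alternatives were RLE size factors, library totals, no count filter, DESeq2 1.42.0, only the groups compared, a replicate block, leaving out each library and, chosen after seeing the data, removal of each library's GC trend.

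The members and the lists were chosen with earlier results of these data known. Members past the test with non-overlapping libraries were described in full, the others by counts and ranges. How many of all genes had non-overlapping libraries was not counted, so lack of overlap is description only. DKK1, RBMS3, FJX1, NUAK2 and AXL in the TC line, members that just missed the test, and genes of the lists around the members were named after their values were seen. With 2 libraries per group the precision rests on a spread pooled over groups (common biological coefficient of variation 0.205), and at these depths a gene with 3 or fewer counts was taken as undetected.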

Additional observations from a re-analysis of the deposited data

Results flagged for a closer look

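The hairpin effect on 8 members differed between the YT and the TC line by the test of the difference itself, for at least 1 hairpin. The matching share of all genes was not counted. By hairpin, 19.4% of the members differed for YEATS2, beside 9.37% of all genes tested, and 22.6% for ZZZ3, beside 4.32%. Of these differences 3 for YEATS2 and 0 for ZZZ3 held in every alternative. Each difference is given as YT minus TC on the log2 scale. For the YEATS2 hairpin these were DKK1 (3.29), EDN1 (1.54), CCDC80 (1.19), AXL (1.38), ANKRD1 (2.27) and FOXF2 (-1.73). For the ZZZ3 hairpin they were DKK1 (1.86), EDN1 (1.52), CCDC80 (1.20), MYOF (-1.25), ANKRD1 (3.10), FOXF2 (-1.44) and GADD45A (-1.17). Both sets rest on the same 4 shNT libraries. GC trend, ZZZ3 level and the level of each gene in YT shNT also differed between the libraries compared, and their part in these differences was not tested.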

How the results depend on the processing

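Alternatives were followed for the 117 member results with an unadjusted p under 0.05, a choice that favours a stable direction, and all 1403 values kept it. Of 45 calls 12 held in each alternative. The YEATS2 gene itself, in the difference of YEATS2 hairpin effects (-0.13, not past the test), turned to 0.094 without TC shYEATS2 replicate 1, with -0.28 as the lowest value when a library was left out. Counts of members called that moved were as follows. With the GC trend removed they were 8 (TC shZZZ3), 21 (YT shYEATS2), 14 (YT shZZZ3), 18 (YEATS2 difference of effects), 14 (ZZZ3 difference of effects), 11 (YT shNT against TC shNT), 8 (between the TC hairpins) and 14 (between the YT hairpins), and the YT shYEATS2 median was 0.386. DESeq2 gave 5 in TC shZZZ3, 10 in the YEATS2 difference and 4 between the TC hairpins. Without a count filter there were 2 in TC shZZZ3 and 4 between the TC hairpins. With the groups of the comparison alone there were 22 in YT shYEATS2 and 2 in YT shNT against TC shNT. With library totals there were 1 between the TC hairpins and 4 between the YT hairpins. With the GC trend removed, with DESeq2 and without a count filter, calls over all genes tested also rose in each comparison named for that setting. Scaling moved the median of all genes by less than 0.1.

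Replicate numbers were not taken to pair the libraries, since no source gives them a shared origin and deviations of same-numbered libraries correlated over 0.1 in only 7 of 15 pairs of groups (-0.438 to 0.898). Those of the TC groups with each other (0.18 to 0.428) and with YT shZZZ3 (0.302 to 0.898) were all over 0.1, and those of YT shNT with the other groups all below 0. With the replicate block, members called were 0 (TC shYEATS2), 1 (TC shZZZ3), 17 (YT shYEATS2), 9 (YT shZZZ3), 9 and 8 (YEATS2 and ZZZ3 differences), 4 (YT shNT against TC shNT), 1 (TC hairpins) and 9 (YT hairpins). The calls gained over shNT were DKK1 in TC shZZZ3, AXL, WTIP, TAGLN and DLC1 in YT shYEATS2, and 2 in YT shZZZ3, AMIGO2 and ARHGEF17. Over all genes tested the replicate block also gave more calls in each comparison than the fit without it.

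Leaving out 1 library, where the remaining one is assumed to vary like the other groups, the counts ranged as follows: 7 to 7 in YT shYEATS2, 1 to 6 in YT shZZZ3, 3 to 9 and 0 to 8 for the YEATS2 and ZZZ3 differences, 2 to 8 in YT shNT against TC shNT, 0 to 1 between the TC hairpins and 0 to 5 between the YT hairpins. The median log2 fold change ranged from -0.0847 to 0.145 in TC shYEATS2, 0.211 to 0.381 in TC shZZZ3, 0.135 to 0.403 in YT shYEATS2, -0.0162 to 0.163 in YT shZZZ3, 0.176 to 0.427 and -0.44 to -0.0897 for the differences, 0.16 to 0.376 in YT shNT against TC shNT, -0.302 to -0.0466 between the TC hairpins and 0.113 to 0.341 between the YT hairpins. The causes of these shifts were not tested. In YT shYEATS2, YT shZZZ3 and between the YT hairpins, each such fit also called fewer of all genes tested, so lost calls are not particular to the members. Counting error weighs most on ANKRD1, whose lowest count was 12, and on DKK1 in TC shZZZ3 (62 and 26 counts).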
